A study of Mus musculus with 15 samples.

Results

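ATP-binding cassette (ABC) transporters were examined in retinal endothelial cells of adult mice. The cells had been captured on anti-PECAM beads, and PECAM is a surface protein of endothelium. The family was taken as every probe set whose gene symbol on the array platform starts with Abc, a class letter from a to g and a number, which gave 92 probe sets for 45 of the 18194 genes tested. Of the 50 protein-coding genes whose RefSeq symbol matches, 45 were measured. The groups were 3 pools from Fz4-/- mice, which lack the receptor Frizzled4, 3 from Lrp5-/- mice, which lack its coreceptor, 3 from Norrin KO mice, which lack the secreted ligand, and 6 from wild-type mice. All were adult retina of both sexes by label, of C57Bl6/129 mixed background. Each pool held cells of 5 to 10 mice on 1 array, so the spread below is between pools. The labels name no promoter or Cre that would limit a knockout to endothelium, so loss there and loss in neighbouring cells cannot be told apart.

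ABC transporters use ATP to move drugs, lipids, sterols, peptides and organic anions across membranes. In the capillaries of brain and retina, P-glycoprotein (Abcb1a in mouse), Abcg2 and several class C proteins return drugs and metabolites to the blood and form part of the blood-retina barrier. Norrin, which is made by Müller glia, signals through Frizzled4 and Lrp5 to beta-catenin in endothelial cells and is needed for retinal capillaries and their barrier.

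The arrays bore out 2 of the genotype labels. Fzd4 averaged 4.22 in Fz4-/- cells and 12.09 in wild-type cells on the log2 signal scale, and Lrp5 averaged 4.91 in Lrp5-/- cells and 7.69 in wild-type cells. Ndp, the Norrin gene, was dim in Norrin KO and wild-type cells alike (4.13 and 4.44), so it does not check the Norrin label. The mean of 7 endothelial markers lay between 11.57 and 11.95 on all arrays, against array medians of 5.88 to 6.04. Markers of other cells were present too: 8 pericyte and smooth muscle markers averaged 11.13 to 11.72 and 6 Müller glia and astrocyte markers 10.26 to 11.27. In such mixed RNA, fewer cells of a type and less RNA per cell cannot be told apart. The actin control exceeded its 5′ signal at the 3′ end by 1.05 to 2.92 on the Norrin KO arrays, against 0.56 to 1.04 on the other arrays. Xist, made from the inactive X chromosome of females, was near background on all Norrin KO arrays (4.12 to 4.98) and high on all Fz4-/- arrays. The other groups held arrays of both kinds. Eif2s3y, a gene of the Y chromosome, had signals of 9.77 to 10.32 on the Norrin KO arrays. These pools thus read as male, although the label gives both sexes. The fit has no term for sex, and the part of sex in the Norrin KO differences was not tested. Lrp5-/- 1, Lrp5-/- 3 and wild type 4 stood apart from the rest in earlier results, and calls that end without them are named below. Over all genes, the deviations of Lrp5-/- 1, 2 and 3 from their group mean correlated with those of wild type 4, 5 and 6 at 0.661, 0.335 and 0.257, and each pair had like Xist signals. Fz4-/- 1, 2 and 3 correlated in the same way with wild type 1, 2 and 3 at 0.258, 0.0601 and 0.381. Signals of the gene Eif2s3y were 9.57, 9.63 and 3.25 on these Fz4-/- arrays and 9.41, 9.78 and 2.69 on these wild-type arrays. Of the 63 pairs of arrays from different groups without a shared replicate number, 18 correlated over 0.1. Apart from replicate numbers the labels name no pairing, and the fit treats all these arrays as independent. Replicate numbers 4 to 6 occur only in wild type. A fit with the replicate number as a block therefore compares each mutant with wild type 1 to 3 alone.

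Promoters are shown for the neighbouring pair Abcb1a and Abcb1b, which encode the mouse P-glycoproteins and behaved differently, and for Abca1, which was higher in every mutant. They run from 250 bases before to 50 after the RefSeq start (build GRCm38.p6), 5′ to 3′ on the gene's strand. Capitals mark CTTTG or its reverse complement CAAAG, the core letters of the site bound by TCF/LEF factors, the partners of beta-catenin.
Abcb1a (chr5:8566841-8567140, plus strand): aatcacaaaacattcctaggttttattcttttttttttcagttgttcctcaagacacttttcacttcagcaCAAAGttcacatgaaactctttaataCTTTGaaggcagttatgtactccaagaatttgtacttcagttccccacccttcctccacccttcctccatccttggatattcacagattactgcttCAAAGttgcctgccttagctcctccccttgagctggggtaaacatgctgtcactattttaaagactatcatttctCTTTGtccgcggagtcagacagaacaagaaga
Abcb1b (chr5:8797897-8798196, plus strand): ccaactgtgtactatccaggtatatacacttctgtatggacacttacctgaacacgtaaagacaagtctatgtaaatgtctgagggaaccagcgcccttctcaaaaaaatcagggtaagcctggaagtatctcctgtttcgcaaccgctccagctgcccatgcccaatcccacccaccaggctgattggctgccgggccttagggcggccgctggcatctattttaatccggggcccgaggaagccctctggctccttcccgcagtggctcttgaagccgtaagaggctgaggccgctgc
Abca1 (chr4:53159846-53160145, minus strand): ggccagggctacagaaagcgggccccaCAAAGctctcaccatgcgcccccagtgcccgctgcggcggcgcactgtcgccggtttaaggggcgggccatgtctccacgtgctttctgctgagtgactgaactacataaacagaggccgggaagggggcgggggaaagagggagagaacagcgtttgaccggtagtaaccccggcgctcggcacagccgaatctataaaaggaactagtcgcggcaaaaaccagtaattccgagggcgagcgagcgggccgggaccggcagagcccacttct
The Abcb1a window held 4 copies, the Abcb1b window 0 and the Abca1 window 1. Other members called in every mutant held few: Abcg2 had 0, 1 and 0 in its windows, Abcc4 1 and 1, and Abcc9 0. Abcc6 and Abcc3 had no window listed. Abcf1 and Abcg5, called in no mutant, held 3 each. No link between copies and changes was tested. Among 32851 windows of the same length in the table, 1.4% held at least 4 copies and 53.9% at least 1. The cutoff of 4 was the count of Abcb1a itself, so the 1.4% is no test of rarity. Of the 42 windows listed for 35 members, 23 (54.8%) held at least 1 copy. A match of 5 letters is a description and not a binding site, and the genes shown were chosen after their values were seen.

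Calls were made at an adjusted p of 0.05 in limma over 18194 genes. The family moved in both directions. In Fz4-/- cells 4 members rose and 5 fell, or 9 of 45, where 16.7% of all genes tested were called (10.7% up and 6.08% down). In Lrp5-/- cells 3 rose and 5 fell (17.8%), against 12.9% of all genes (5.63% up and 7.27% down). In Norrin KO cells 8 rose and 4 fell (26.7%), against 25.8% of all genes (16.7% up and 9.13% down). For the mean of the 3 mutants 6 rose and 5 fell, where 23.9% of all genes were called (14% up and 9.91% down). The shares for Fz4-/- and Norrin KO cells thus lay near those of all genes. Median log2 differences from wild type were -0.13 in Fz4-/-, -0.05 in Lrp5-/- and 0.02 in Norrin KO cells over the members, and -0.03, -0.02 and 0.04 over all genes.

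The 3 mutants shared the wild-type arrays, so their differences from wild type are not independent. Called in the same direction in each were 7 of the 45 members, where 7.57% of all genes were (4.49% up and 3.08% down): Abcb1a, Abcg2, Abcc4 and Abcc6 fell and Abcc3, Abca1 and Abcc9 rose. Abcg1 rose in Fz4-/- and Norrin KO cells, and Abcg3 fell in Fz4-/- and Lrp5-/- cells. Another 4 genes, Abca3, Abca9, Abcc1 and Abcc5, passed the threshold in Norrin KO cells and not in the other mutants, which does not show that the mutants differ, and 32 were called in no mutant. The arrays of mutant and wild-type cells were fully separated for 13 members in Fz4-/-, 11 in Lrp5-/- and 13 in Norrin KO cells, where 23.2%, 16.7% and 25.3% of all genes did not overlap. All 9 mutant arrays lay on the same side of all 6 wild-type arrays for 8 members, against 8.29% of all genes.

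**Figure D1:**
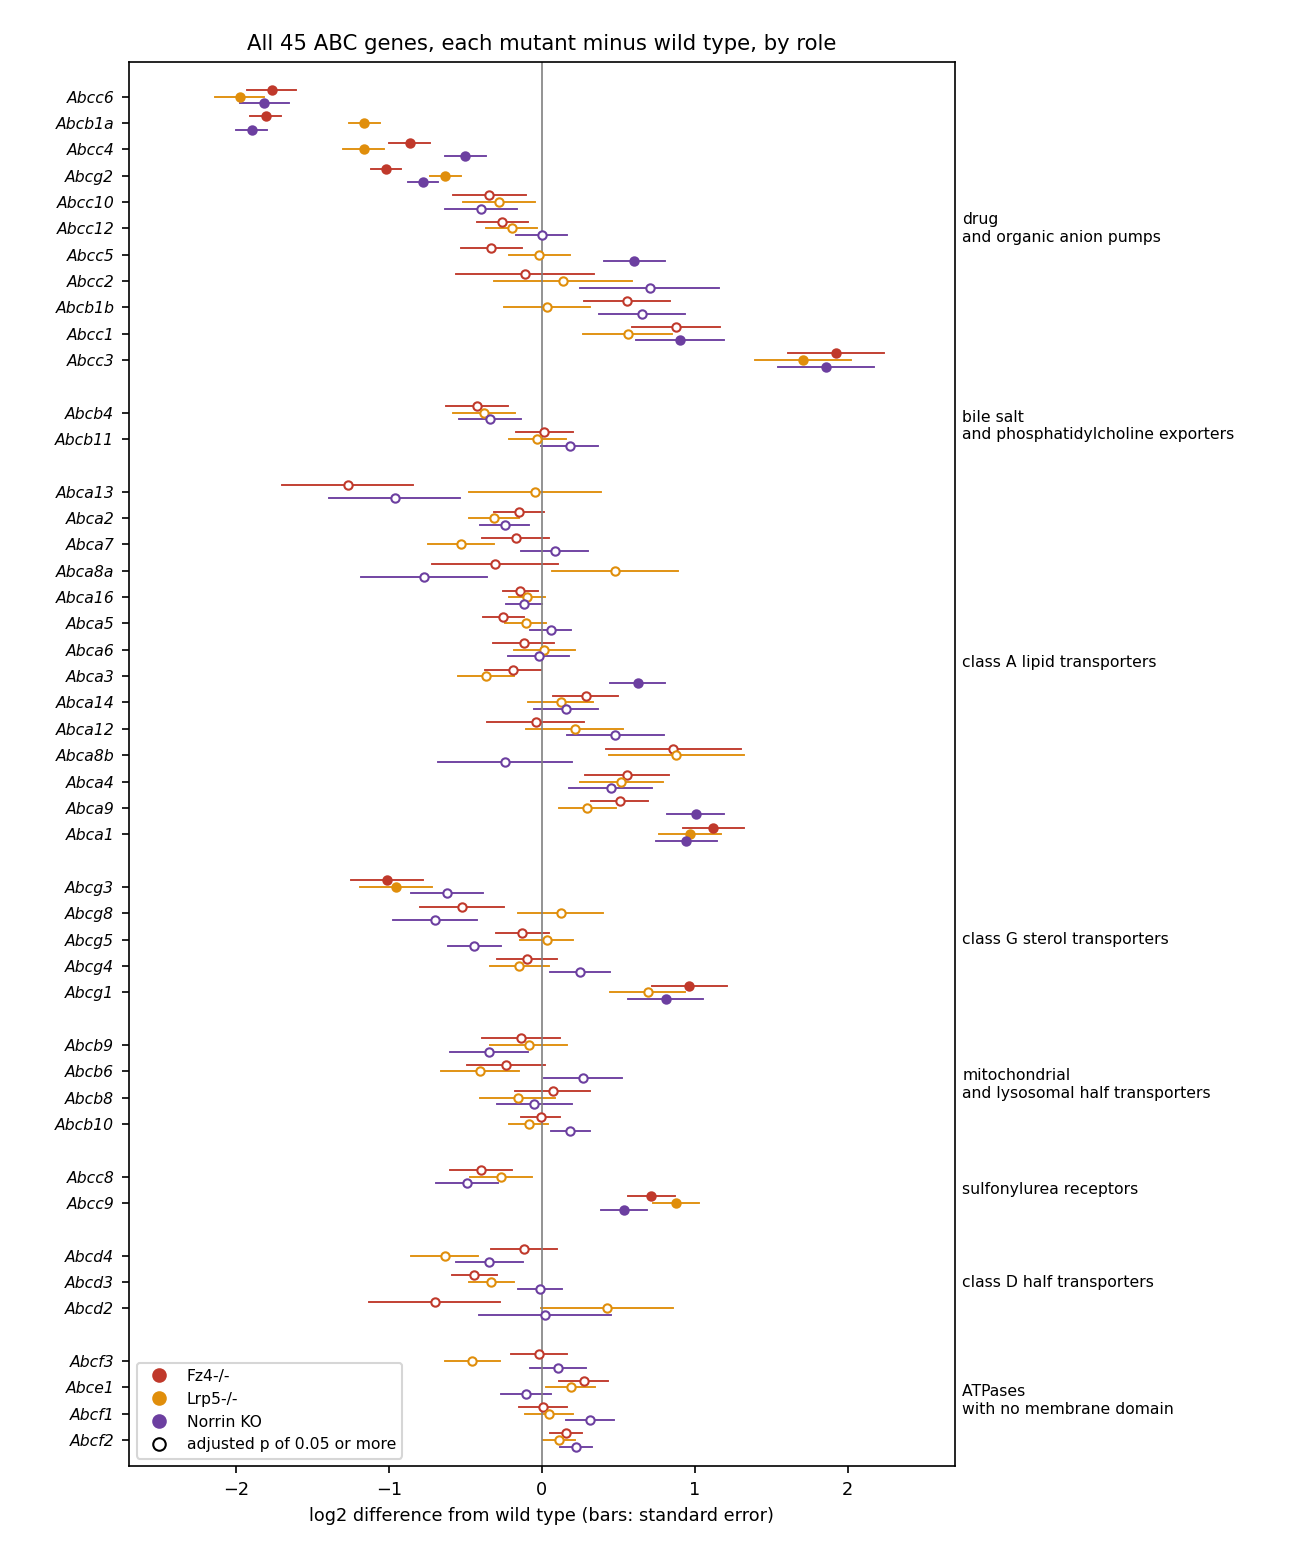
Log2 difference of each mutant from wild type (horizontal axis) for all 45 ABC genes, grouped by role, with the standard error as a bar and called differences filled. The filled points lie mostly among the drug and organic anion pumps, Abca1, Abcc9 and class G, and the class D, E and F genes have none.

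The drug and organic anion pumps held the largest falls. Of 11 such genes, 1 rose and 4 fell in Fz4-/- cells, where 10.7% of all genes rose and 6.08% fell. In Lrp5-/- cells 1 rose and 4 fell, against 5.63% and 7.27% of all genes. In Norrin KO cells 3 rose and 4 fell, against 16.7% and 9.13% of all genes.

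Abcb1a, the main P-glycoprotein of mouse barrier capillaries, had signals of 11.32, 11.35 and 11.33 in Fz4-/-, 11.81, 12.14 and 11.99 in Lrp5-/- and 11.16, 11.33 and 11.24 in Norrin KO cells, against a lowest of 13.08, a median of 13.14 and a highest of 13.18 in wild-type cells. Every mutant array was below every wild-type array, with Lrp5-/- between the other mutants and wild type. The log2 difference was -1.81 ± 0.10 (SE) in Fz4-/-, -1.16 ± 0.10 in Lrp5-/- and -1.90 ± 0.10 in Norrin KO cells, with limma adjusted p of 1.5e-08, 2.18e-06 and 9.83e-09. In folds these were 3.49, 2.24 and 3.72 times lower. The second Abcb1a probe set fell as well, by 2.20 in Fz4-/-, 1.41 in Lrp5-/- and 2.26 in Norrin KO cells on the log2 scale.

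Its neighbour Abcb1b, the other mouse P-glycoprotein gene, did not pass the test in any mutant. The signals were 6.87, 7.06 and 7.25 in Fz4-/-, 6.58, 6.73 and 6.31 in Lrp5-/- and 7.72, 6.63 and 7.14 in Norrin KO cells, and ran from 5.78 through a median of 6.62 to 7.12 in wild-type cells. All groups overlapped with wild type. The differences were 0.56, 0.03 and 0.66 on the log2 scale in Fz4-/-, Lrp5-/- and Norrin KO cells (limma adjusted p 0.212, 0.975 and 0.102). Abcb4, the phosphatidylcholine exporter of bile that follows next on chromosome 5 with no coding gene between, was not called either, at -0.42, -0.38 and -0.34.

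Abcg2, the breast cancer resistance protein and another main pump of barrier capillaries, had signals of 11.82, 11.88 and 11.89 in Fz4-/-, 12.25, 12.27 and 12.24 in Lrp5-/- and 12.12, 12.07 and 12.13 in Norrin KO cells. In wild-type cells the lowest was 12.71, the median 12.88 and the highest 13.04. No mutant array reached the lowest wild-type array. The log2 difference was -1.02 ± 0.10 (SE) in Fz4-/-, -0.63 ± 0.10 in Lrp5-/- and -0.78 ± 0.10 in Norrin KO cells (limma adjusted p 5.06e-06, 0.0006 and 5.86e-05). Without the 3 arrays that stood apart, the Lrp5-/- difference was -0.58 with an adjusted p of 0.0576, from 1 remaining Lrp5-/- array assumed to vary like the other groups.

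Abcc4, which exports cyclic nucleotides and organic anions, had signals of 10.26, 10.17 and 10.26 in Fz4-/-, 9.72, 10.07 and 9.99 in Lrp5-/- and 10.91, 10.41 and 10.46 in Norrin KO cells, against 10.91, 11.10 and 11.21 as lowest, median and highest in wild-type cells. Norrin KO 1 lay just under the lowest wild-type array. The falls were -0.86 ± 0.13 (SE), -1.16 ± 0.13 and -0.50 ± 0.13 on the log2 scale in Fz4-/-, Lrp5-/- and Norrin KO cells (limma adjusted p 0.000353, 3.32e-05 and 0.0129). The Norrin KO call ended without Norrin KO 2 (-0.41, adjusted p 0.0652) or Norrin KO 3 (-0.43, adjusted p 0.0640). It also ended with the replicate number as a block (-0.54, adjusted p 0.0689).

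Abcc6, whose loss in people causes mineralisation of elastic tissue, was dim throughout. Its signals were 3.26, 3.29 and 3.11 in Fz4-/-, 2.91, 3.04 and 3.08 in Lrp5-/- and 2.97, 3.26 and 3.29 in Norrin KO cells, against a lowest of 4.50, a median of 5.09 and a highest of 5.25 in wild-type cells. The groups did not overlap. The log2 differences were -1.77 ± 0.16 (SE), -1.98 ± 0.16 and -1.81 ± 0.16 in Fz4-/-, Lrp5-/- and Norrin KO cells (limma adjusted p 2.57e-06, 1.11e-06 and 1.92e-06). The gene rested on 1 probe set, and its wild-type mean was under the lowest array median, as was that of 17 members in all.

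Abcc3, an exporter of glucuronide conjugates and bile acids, went the other way. The signals were 7.94, 8.36 and 8.38 in Fz4-/-, 7.74, 8.58 and 7.74 in Lrp5-/- and 8.17, 8.25 and 8.08 in Norrin KO cells, against a lowest of 5.30, a median of 6.46 and a highest of 6.96 in wild-type cells. Every mutant array exceeded every wild-type array, among which wild type 4 was lowest. The rises were 1.92 ± 0.31 (SE), 1.71 ± 0.31 and 1.86 ± 0.31 on the log2 scale, or 3.79-, 3.27- and 3.62-fold, in Fz4-/-, Lrp5-/- and Norrin KO cells (limma adjusted p 0.000576, 0.00203 and 0.000609).

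Abcc1, an exporter of glutathione conjugates such as leukotriene C4, had signals of 8.89, 8.77 and 9.41 in Fz4-/-, 8.59, 8.96 and 8.56 in Lrp5-/- and 9.43, 8.58 and 9.13 in Norrin KO cells, against a lowest of 7.09, a median of 8.33 and a highest of 8.53 in wild-type cells. The mutant arrays all lay above the wild-type arrays, some only just. It rose in Norrin KO cells (0.90 ± 0.29 SE, limma adjusted p 0.0335) and for the mean of the 3 mutants (0.78 ± 0.22, adjusted p 0.0157), while in Fz4-/- and Lrp5-/- cells the differences were 0.88 and 0.56 with adjusted p of 0.0516 and 0.254. Fz4-/- minus Norrin KO was -0.03 ± 0.33 (SE, limma adjusted p 0.978). Its call in Norrin KO cells was lost without Norrin KO 1 (adjusted p 0.161), Norrin KO 3 (0.0959) or wild type 2 (0.0549). It was also lost with only the groups compared in the fit (0.0683). With the replicate number as a block, the Norrin KO call (adjusted p 0.0754) and that for the mean of the mutants (0.0804) were lost. The Fz4-/- difference passed the threshold with the mean of both probe sets (0.85, adjusted p 0.00768), among other alternatives.

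Abcc5, another exporter of cyclic nucleotides, had signals of 8.18, 8.33 and 7.66 in Fz4-/-, 8.45, 8.73 and 7.93 in Lrp5-/- and 8.90, 8.96 and 9.11 in Norrin KO cells, against a lowest of 7.92, a median of 8.44 and a highest of 8.63 in wild-type cells. Norrin KO was the only group whose arrays all lay above the wild-type arrays. The difference was 0.60 ± 0.20 (SE) in Norrin KO cells (limma adjusted p 0.0395), and -0.33 and -0.02 in Fz4-/- and Lrp5-/- cells (adjusted p 0.31 and 0.984). Of its 10 probe sets, 6 rose in Norrin KO cells by the fit over single probe sets, where 23.3% of all probe sets were called. The call on the brightest probe set ended on leaving out any 1 of the Norrin KO arrays or wild type 2, 3 or 4, with adjusted p between 0.0564 and 0.1235. It also ended with quantile normalization again (0.47, adjusted p 0.123) and with the replicate number as a block (0.69, adjusted p 0.0530).

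**Figure D2:**
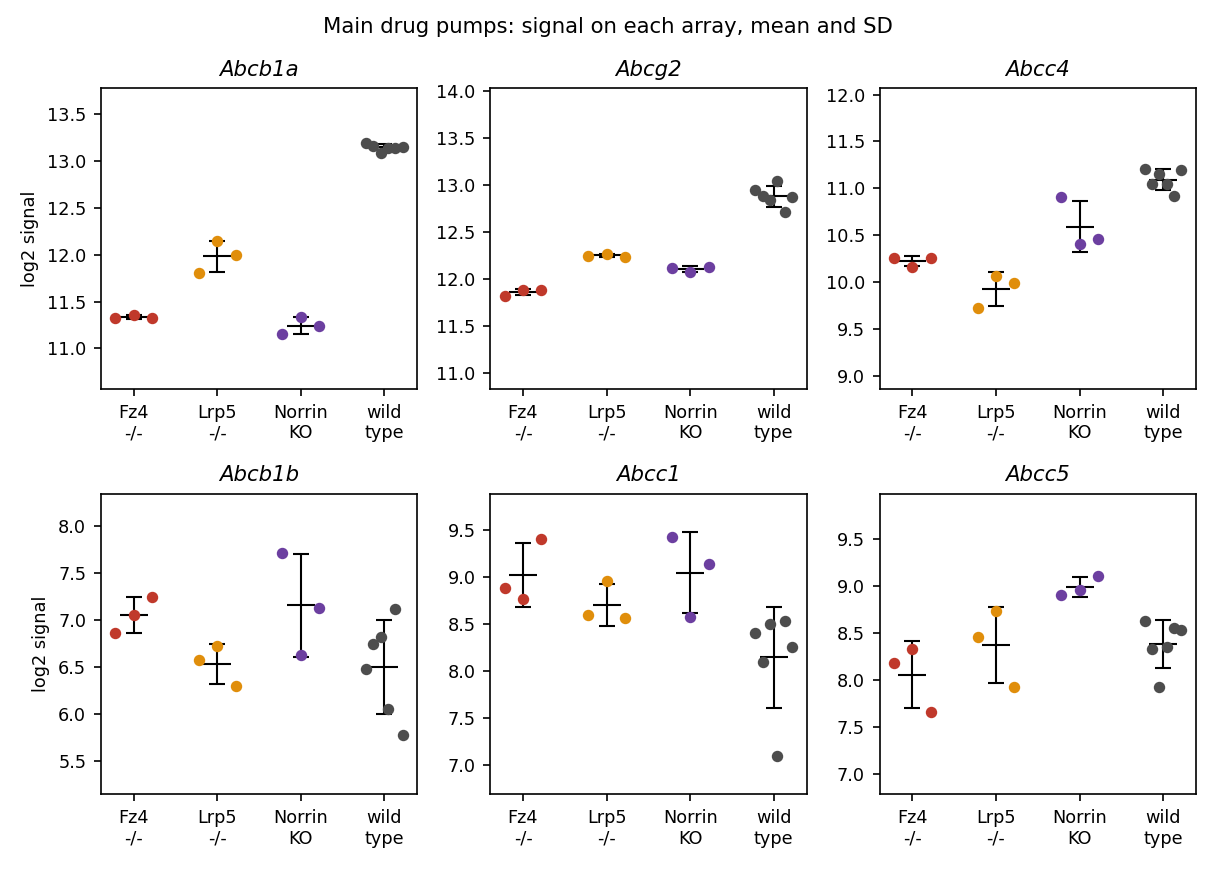
Log2 signal (vertical axis) of 6 pumps on every array, with the mean and SD of each group, for Fz4-/-, Lrp5-/-, Norrin KO and wild-type cells. Abcb1a, Abcg2 and Abcc4 sit lower on all 9 mutant arrays, Abcb1b overlaps between groups, and Abcc5 is higher on the Norrin KO arrays alone.

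The remaining pumps, Abcc2 (conjugate export into bile), Abcc10 and Abcc12, were not called in any mutant. Abcc2 in Norrin KO cells had the widest of their differences, 0.71 on the log2 scale.

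Of the sterol exporters, Abca1 rose in all 3 mutants and Abcg1 in Fz4-/- and Norrin KO cells, while Abcg5 and Abcg8 were not called. Abca1, which loads cholesterol onto lipid-poor apolipoproteins, had signals of 10.65, 10.85 and 11.19 in Fz4-/-, 11.09, 10.65 and 10.51 in Lrp5-/- and 10.61, 10.94 and 10.62 in Norrin KO cells, against a lowest of 9.43, a median of 9.73 and a highest of 10.36 in wild-type cells. The 9 mutant arrays all lay above the 6 wild-type arrays. The rises were 1.12 ± 0.20 (SE), 0.97 ± 0.20 and 0.95 ± 0.20 on the log2 scale in Fz4-/-, Lrp5-/- and Norrin KO cells (limma adjusted p 0.0012, 0.00484 and 0.00321). The Lrp5-/- call ended with the mean of all probe sets (0.78, adjusted p 0.0602) and without the 3 arrays that stood apart (0.89, from 1 remaining Lrp5-/- array). With the replicate number as a block, both the Lrp5-/- call (0.85, adjusted p 0.0713) and the Norrin KO call (0.82, adjusted p 0.0513) ended. In that fit wild type 1 to 3 alone are the comparison.

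Abcg1, which moves cholesterol to high-density lipoprotein, had signals of 11.04, 11.42 and 11.04 in Fz4-/-, 10.68, 10.97 and 11.04 in Lrp5-/- and 10.30, 11.22 and 11.52 in Norrin KO cells, against a lowest of 9.66, a median of 10.23 and a highest of 10.57 in wild-type cells. Norrin KO 1 fell inside the wild-type range. It rose in Fz4-/- cells (0.96 ± 0.25 SE, limma adjusted p 0.0136) and Norrin KO cells (0.81 ± 0.25, adjusted p 0.0257), and the Lrp5-/- difference of 0.69 had an adjusted p of 0.0829. The dimmer Abcg1 probe set rose in all 3 mutants, by 1.46 in Fz4-/-, 0.89 in Lrp5-/- and 2.22 in Norrin KO cells. The call on the brightest one ended in Fz4-/- cells without Fz4-/- 2 (adjusted p 0.0728). In Norrin KO cells it ended without Norrin KO 2 (0.0943) or Norrin KO 3 (0.146). There it also ended with only the groups compared (0.0611) and with the replicate number as a block (0.0521). The Lrp5-/- difference passed the threshold with the mean of both probe sets (0.79, adjusted p 0.0182).

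Macrophages use both Abca1 and Abcg1, and macrophage markers moved in the same direction. Of 8 macrophage and microglia markers, 5 rose in Fz4-/-, 2 in Lrp5-/- and 2 in Norrin KO cells and 0 fell. Of all genes, 10.7%, 5.63% and 16.7% rose in these mutants. The mean signal of the 8 markers was 9.48 to 10.15 in Fz4-/-, 9.001 to 9.79 in Lrp5-/- and 9.48 to 10.11 in Norrin KO cells, against 7.67 to 9.22 in wild-type cells. The part of these markers' cells in the rise of Abca1, Abcg1 and Abcc3 was not tested.

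Of 14 class A genes measured, Abca1 among them, 1 rose in Fz4-/-, 1 in Lrp5-/- and 3 in Norrin KO cells, and 0 fell. Of all genes, 10.7%, 5.63% and 16.7% rose and 6.08%, 7.27% and 9.13% fell in these mutants. Abca9, one of a row of class A neighbours on chromosome 11 with Abca8b, Abca8a, Abca6 and Abca5, had signals of 9.36, 9.58 and 9.58 in Fz4-/-, 8.89, 9.44 and 9.56 in Lrp5-/- and 10.25, 9.95 and 9.81 in Norrin KO cells, against a lowest of 8.44, a median of 9.10 and a highest of 9.20 in wild-type cells. The Norrin KO arrays were the highest, and Lrp5-/- 1 lay in the wild-type range. It rose by 1.01 ± 0.19 (SE) in Norrin KO cells (limma adjusted p 0.0013), and the Fz4-/- and Lrp5-/- differences of 0.51 and 0.30 were not called. With the mean of its probe sets the Lrp5-/- difference was 0.62 (adjusted p 0.0173). The other genes of the row were not called in any mutant, although a dimmer Abca5 probe set fell by 1.00 in Fz4-/- and 1.37 in Norrin KO cells. The 5 fibroblast markers, of which 1 was called up and 1 down in Norrin KO cells, averaged 7.13 to 7.58 in Fz4-/-, 7.26 to 7.44 in Lrp5-/- and 7.93 to 8.59 in Norrin KO cells, against 7.80 to 8.35 in wild-type cells. Of all genes, 16.7% were called up and 9.13% down in Norrin KO cells. The part of these markers in the Abca9 value was not tested.

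Abca3, the lipid transporter of lung surfactant, had signals of 9.76, 9.93 and 9.78 in Fz4-/-, 9.39, 9.97 and 9.58 in Lrp5-/- and 11.10, 10.35 and 10.47 in Norrin KO cells, against a lowest of 9.76, a median of 10.07 and a highest of 10.27 in wild-type cells. All Norrin KO arrays exceeded the wild-type arrays. Norrin KO cells were higher by 0.63 ± 0.18 (SE, limma adjusted p 0.0201), and Fz4-/- and Lrp5-/- cells were not called. The call rested on 1 array and 1 probe set. Without Norrin KO 1 the difference was 0.40 (adjusted p 0.13). The mean of all 3 probe sets gave -0.22 (adjusted p 0.265), the opposite direction.

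Abca4, the retinoid flippase of rod and cone outer segments, averaged 7.37 in Fz4-/-, 7.34 in Lrp5-/-, 7.27 in Norrin KO and 6.82 in wild-type cells. It was not called in any mutant. The mean of 7 photoreceptor markers was 6.07 to 7.24 in Fz4-/-, 6.63 to 7.83 in Lrp5-/- and 5.45 to 6.72 in Norrin KO cells, against 5.60 to 6.31 in wild-type cells. In these mutants 1, 3 and 1 of them were called up and 0 down, where 10.7%, 5.63% and 16.7% of all genes were called up. Their part in the Abca4 value was not tested.

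The dim Abca13 had the widest uncalled difference from wild type in the family, -1.27 ± 0.43 (SE) in Fz4-/- cells with a limma adjusted p of 0.0584. Its signals were 3.91, 3.44 and 3.15 there, against 3.93 to 6.24 in wild-type cells, so the arrays did not overlap. Its other probe set, dimmer still, differed by -0.03 in Fz4-/- cells. In Lrp5-/- and Norrin KO cells the differences of the brighter one were -0.05 and -0.96, also uncalled. Abca2, Abca7, Abca12, a lipid transporter of skin, Abca14 and Abca16 were not called in any mutant.

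Abcg3, a class G gene found in rodents, was lower. Its signals were 6.05, 5.90 and 5.81 in Fz4-/-, 6.24, 5.85 and 5.85 in Lrp5-/- and 5.94, 6.45 and 6.56 in Norrin KO cells, against a lowest of 6.37, a median of 7.07 and a highest of 7.48 in wild-type cells. Norrin KO arrays overlapped with wild type and the others did not. The log2 difference was -1.01 ± 0.24 (SE) in Fz4-/-, -0.96 ± 0.24 in Lrp5-/- and -0.62 ± 0.24 in Norrin KO cells (limma adjusted p 0.00765, 0.0148 and 0.067). Its second, dimmer probe set fell in all 3 mutants, and with the mean of both the Norrin KO difference was -0.87 (adjusted p 0.00345). The Lrp5-/- call ended without Lrp5-/- 2 (adjusted p 0.0576) or Lrp5-/- 3 (0.0701), without the 3 arrays that stood apart (-1.20, 0.0793, from 1 remaining Lrp5-/- array), and with only wild type 4 to 6 as the comparison (-0.64, 0.132).

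The other class G members were not called in any mutant. They are Abcg4 and the sterol exporter pair Abcg5 and Abcg8, which lie next to each other on chromosome 17. In Norrin KO cells Abcg5 was at -0.44 and Abcg8 at -0.70 on the log2 scale, with limma adjusted p of 0.077 and 0.0768.

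Abcc9 encodes the sulfonylurea receptor SUR2, the regulatory subunit of the potassium channel of pericytes and smooth muscle. It had signals of 12.04, 12.33 and 12.20 in Fz4-/-, 12.36, 12.39 and 12.29 in Lrp5-/- and 11.91, 11.87 and 12.24 in Norrin KO cells, against a lowest of 11.08, a median of 11.52 and a highest of 11.81 in wild-type cells. All mutant arrays were above all wild-type arrays. The rises were 0.72 ± 0.15 (SE), 0.87 ± 0.15 and 0.54 ± 0.15 on the log2 scale in Fz4-/-, Lrp5-/- and Norrin KO cells (limma adjusted p 0.00395, 0.00125 and 0.0173), and all 3 of its probe sets rose in all 3 mutants. The Norrin KO call ended without Norrin KO 3 (0.42, adjusted p 0.0946) and with only the groups compared (0.54, adjusted p 0.0512). It also ended with the replicate number as a block (0.47, adjusted p 0.0896). The Lrp5-/- call ended without the 3 arrays that stood apart (0.93, from 1 remaining Lrp5-/- array).

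Its channel partner Kcnj8 rose in Lrp5-/- cells (0.59, limma adjusted p 0.0201) and was not called in Fz4-/- (0.32) or Norrin KO cells (0.04). The 8 pericyte and smooth muscle markers, Kcnj8 among them, averaged 11.49 to 11.64 in Fz4-/-, 11.25 to 11.72 in Lrp5-/- and 11.28 to 11.49 in Norrin KO cells, against 11.13 to 11.49 in wild-type cells, with 1 marker called up in each mutant and 0 down. Of all genes, 10.7%, 5.63% and 16.7% were called up in Fz4-/-, Lrp5-/- and Norrin KO cells. The part of these markers in the Abcc9 rise was not tested. Abcc8, the receptor SUR1 of neurons and beta cells, was not called, at -0.40, -0.27 and -0.49 in Fz4-/-, Lrp5-/- and Norrin KO cells.

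**Figure D3:**
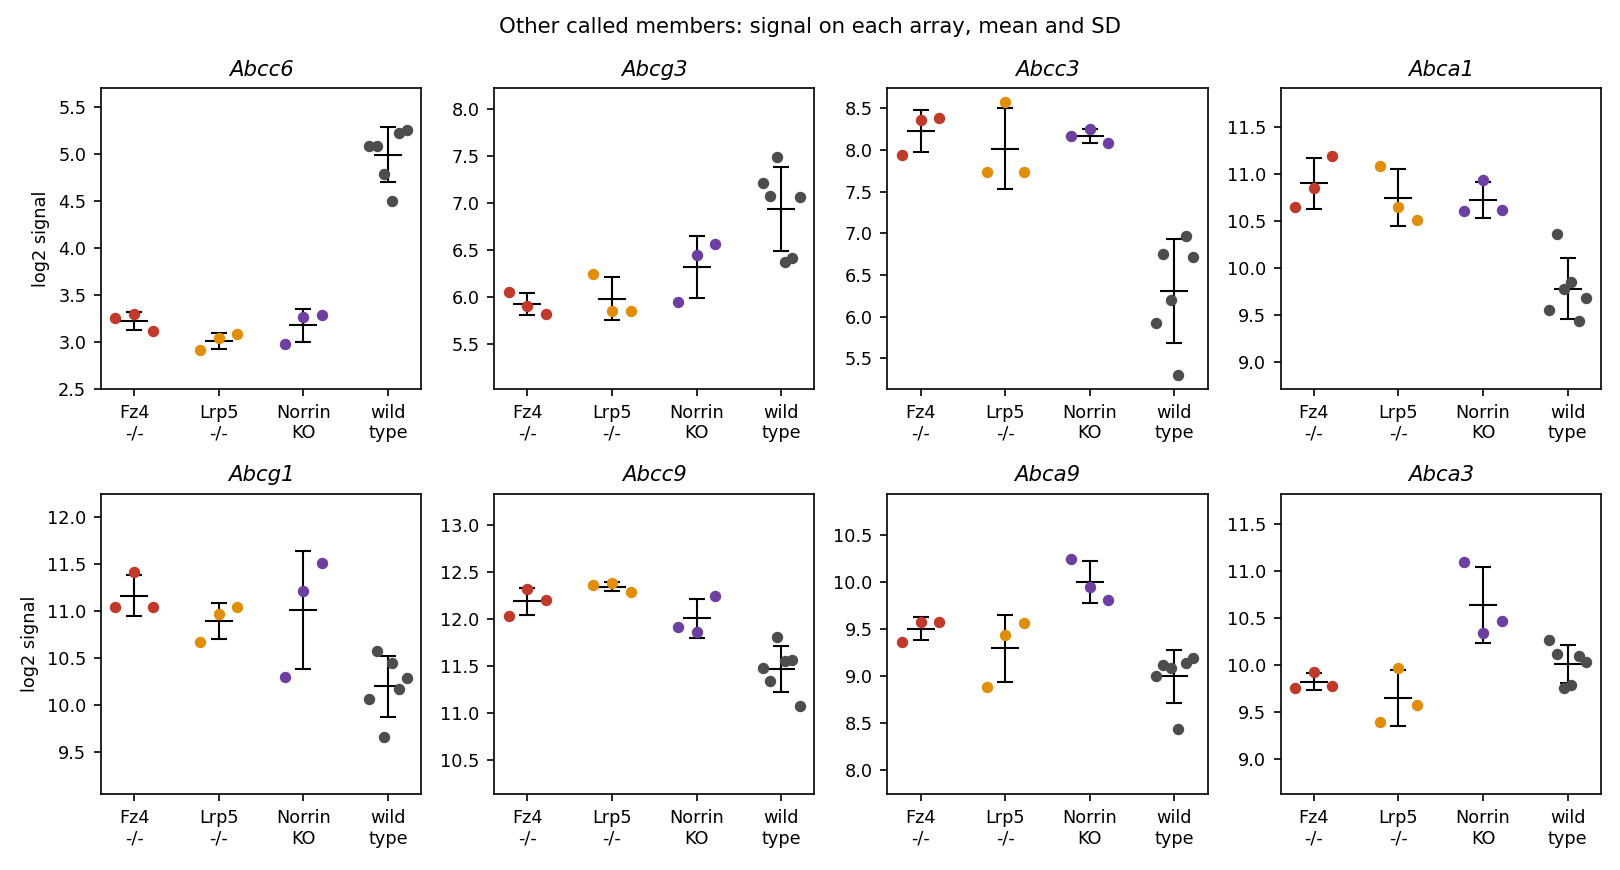
Log2 signal (vertical axis) of 8 further members on every array, with the mean and SD of each group. Abcc6 lies lower, and Abcc3, Abca1 and Abcc9 higher, on all 9 mutant arrays than on the wild-type arrays, and Abca9 and Abca3 are highest on the Norrin KO arrays.

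The intracellular members showed no call on their brightest probe sets. These were the mitochondrial Abcb6, Abcb8 and Abcb10 and the lysosomal peptide transporter Abcb9, the class D genes Abcd2, Abcd3 and Abcd4 of peroxisomes and lysosomes, and the soluble ATPases Abce1, Abcf1, Abcf2 and Abcf3, which act in translation. Abcd3 came nearest in Fz4-/- cells (-0.44, limma adjusted p 0.0505). Dimmer probe sets gave Abcd4 lower (-0.77) and Abce1 higher (0.87) in Lrp5-/- cells, and Abcf1 lower (-0.63) and Abcd2 higher (1.04) in Norrin KO cells. Of all single probe sets, 9.66% were called in Lrp5-/- and 23.3% in Norrin KO cells. For the mean of the mutants no probe set of Abcd4, Abce1, Abcf1 or Abcd2 was called. The bile salt exporter Abcb11 was not called.

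Probe sets of the same gene mostly shared the direction of its call. For the mean of the 3 mutants, both probe sets of Abcb1a and Abcg3 fell, where 20.8% of all single probe sets were called. Both of Abcg1 and Abcc1, all 3 of Abcc9, 2 of 3 of Abca1 and 1 of 2 of Abca9 rose. Probe sets of Abca3 ran from -0.50 to 0.02, all uncalled, and their mean reversed its Norrin KO call, as given above. Abca5 differed in its call, since its dimmer probe set fell by 0.71 and its brightest was uncalled at -0.10.

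**Figure D4:**
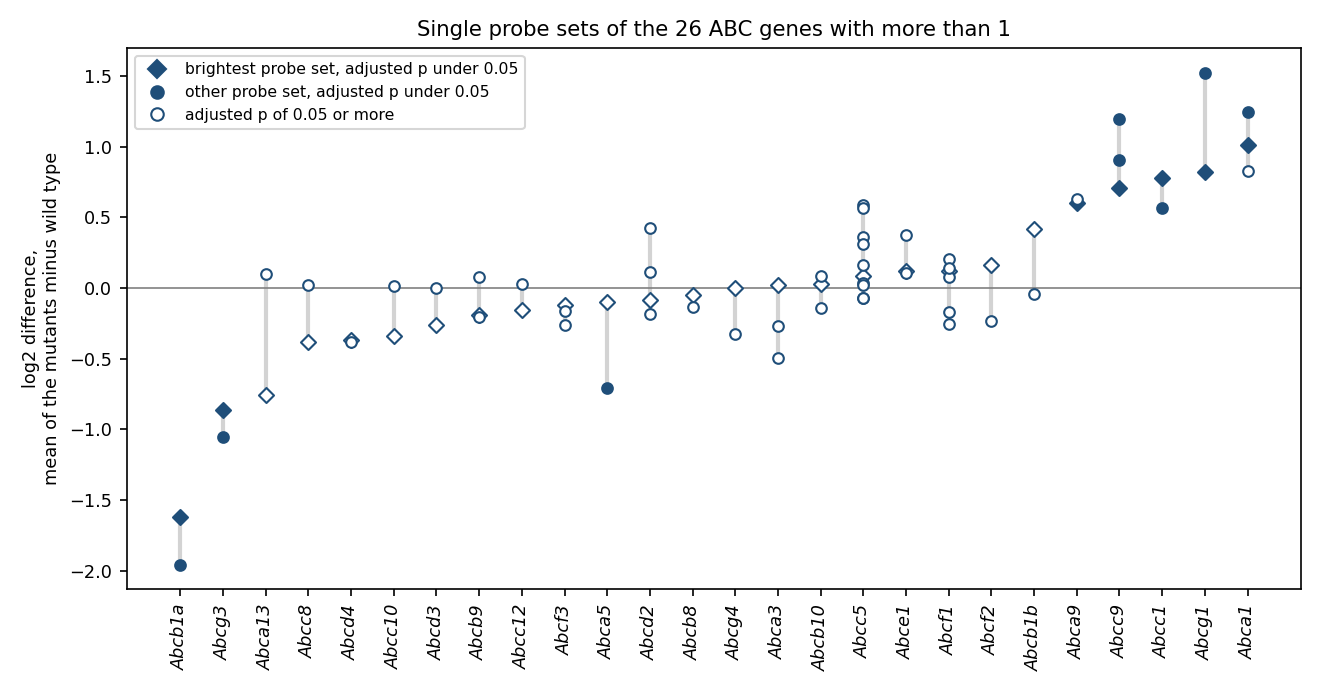
Log2 difference of the mean of the mutants from wild type (vertical axis) for every probe set of the 26 members with more than 1, with the brightest as a diamond and called ones filled. Probe sets of Abcb1a lie at -1.62 and -1.96 and those of Abcc9 between 0.71 and 1.20, while those of Abca5 are -0.10 and -0.71.

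Differences between mutants were few. Between Fz4-/- and Lrp5-/- cells 1 member was lower, where 0.225% of all genes were called (0.159% up and 0.066% down). Between Norrin KO and Lrp5-/- cells 3 were higher and 1 lower, where 11.9% of all genes were called (9.5% up and 2.43% down). Between Fz4-/- and Norrin KO cells 0 were called by limma, with 6 at an unadjusted p under 0.05, where 2.32% of all genes were called (0.896% up and 1.43% down). Abcb1a was lower in Fz4-/- than in Lrp5-/- cells (-0.64 ± 0.12 SE, adjusted p 0.0355) and lower in Norrin KO than in Lrp5-/- cells (-0.74 ± 0.12, adjusted p 0.00305). The arrays of these groups did not overlap. The first of these calls ended on leaving out any of 11 arrays, with adjusted p between 0.0501 and 0.184, and with the replicate number as a block (0.172). Both calls ended without the 3 arrays that stood apart (-0.81 and -0.90, from 1 remaining Lrp5-/- array).

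Against Lrp5-/- cells, Norrin KO cells were also higher in Abca3 (0.99 ± 0.21 SE, limma adjusted p 0.0105), Abca9 (0.71 ± 0.22, adjusted p 0.0480) and Abcc4 (0.66 ± 0.15, adjusted p 0.0156). Without Lrp5-/- 1 none of these 3 was called, with adjusted p of 0.0530 for Abca3, 0.205 for Abca9 and 0.0733 for Abcc4. Abcc4 was also lost without Norrin KO 1 (0.0529), Abca9 on leaving out any of 14 arrays (0.0507 to 0.205), and Abca3 with the mean of its 3 probe sets (-0.00135). All 3 calls ended without the 3 arrays that stood apart, from 1 remaining Lrp5-/- array. The differences were then 0.67 for Abca3, 0.56 for Abca9 and 0.52 for Abcc4. With only the groups compared in the fit, 0 members were called in either contrast with Lrp5-/- cells. For Abcg2 the Fz4-/- and Lrp5-/- arrays did not overlap, and the difference was -0.39 with an adjusted p of 0.317. Abcc5 and Abca3 in Fz4-/- against Norrin KO cells, at -0.93 and -0.82, had adjusted p of 0.0518 and 0.0575.

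The actin gap named above sets the Norrin KO arrays apart, and Norrin KO 1, with the widest gap, was also the highest array of its group for 25 of the 45 members. Its part in the calls made in Norrin KO cells was not tested.

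Genes around the family were read from lists. Among 11 regulators of ABC genes, 3 rose in every mutant, as did 4.49% of all genes: the aryl hydrocarbon receptor Ahr (3.18, 3.13 and 3.33 in Fz4-/-, Lrp5-/- and Norrin KO cells), Pparg (2.66, 2.13 and 4.19), and Nfe2l2, which encodes the stress factor Nrf2 (0.88, 0.86 and 0.64). Srebf2, which drives cholesterol synthesis genes, fell in Norrin KO cells by 0.77. The xenobiotic receptors Nr1i2 and Nr1i3 and the liver X receptor Nr1h3 were not called. Among 7 partners of ABC proteins, Apoe, a sterol acceptor, rose in each mutant, as did 4.49% of all genes. Its rises were 1.61, 1.49 and 1.17 in Fz4-/-, Lrp5-/- and Norrin KO cells. Listed regulators and partners that are not named are not described here. Of 3 family members under other names, the peptide transporter gene Tap1 rose in Fz4-/- cells (0.76), Tap2 fell in Norrin KO cells by 0.51, and Cftr was not called.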

How the data were processed

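Endothelial cells from retinas of adult mice were profiled on 15 Affymetrix mouse arrays. The deposited values are log2 signals made by the authors with RMA, per the submitters' processing notes. No source used here gives the version, the settings or whether all arrays were normalized together. They were used as deposited, with no rescaling and no filter on dim genes. The table has no detection calls, and precision is limited by the number of arrays.

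Of 45101 probe sets, 34958 carried exactly 1 symbol in the platform table. Each gene was represented by its brightest probe set, averaged over 15 arrays. Group means were fitted over all arrays in limma 3.58.1 (R 4.3.3; lmFit, contrasts.fit, eBayes), with 7 contrasts and Benjamini-Hochberg adjustment over 18194 genes. The same fit over 34958 probe sets is given beside it. The fit was tested on simulated data. Every member may be named, with per-array values for members called in the mean of the 3 mutants with a log2 difference of at least 1, those differing between mutants, and Abcb1a, Abcb1b, Abcg2, Abcc1, Abcc4 and Abcc5. Other called members are shown per array as well, chosen after their values were seen. Members and lists were chosen with earlier results of these data known. Promoters and gene order are from RefSeq (GRCm38.p6).

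There were 12 alternatives besides leaving out each array: quantile normalization again, median centring, genes brighter than the median gene, averaging a gene's probe sets, each probe set alone, dropping the _x_at and _s_at probe sets, trend and robust in eBayes, only the groups compared, the replicate number as a block, leaving out 3 arrays that stood apart, matched wild-type arrays, and a 2-fold minimum change.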

Additional observations from a re-analysis of the deposited data

Results flagged for a closer look

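Wild type 4 stood away from the other wild-type arrays for 6 of the 45 members. Its gap to the nearest array, as a share of the range of the 6 wild-type arrays, was 0.8352 for Abca12 and 0.784 for Abcc2, where it was highest, and 0.7453 for Abca9, 0.7413 for Abcb10, 0.6953 for Abcc1 and 0.6376 for Abca7, where it was lowest. Wild type 1 stood highest for Abca8b, with a share of 0.642. All exceed Dixon's critical value for 6 arrays, which chance passes in about 1 in 20 groups. The share over all genes is not given here, and wild type 4 stood apart in earlier results. The count is therefore not read as a trait of the family.

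Mutants differed from each other in 5 tests. Abcb1a was at -0.64434 in Fz4-/- minus Lrp5-/- cells and -0.73605 in Norrin KO minus Lrp5-/- cells on the log2 scale. Norrin KO minus Lrp5-/- was 0.99213 for Abca3, 0.70753 for Abca9 and 0.66431 for Abcc4.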

How the results depend on the processing

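Over 61 results on named genes and 1588 alternative fits, 1428 kept direction and side of the threshold, 109 lost the call, 26 gained it and 25 changed sign, of which 23 were called in neither fit. With the mean of all probe sets, Abca3 reversed to -0.222 in Norrin KO against wild-type cells and to -0.00135 in Norrin KO against Lrp5-/- cells, as its dimmer probe sets moved the other way. The uncalled sign changes were these. Abca3 in the mean of the mutants, at 0.02, was -0.011 with quantile normalization again, -0.248 with the mean of its probe sets, -0.0143 with the block, -0.498 with each probe set alone and -0.052 to 0.0766 with arrays left out. Abcc5 in Fz4-/- cells, at -0.33, was 0.0859 with the mean of its probe sets and 0.671 with each probe set alone. Abcc5 in Lrp5-/- cells, at -0.02, was 0.0193 with quantile normalization again, 0.0743 with the block, 0.335 without the 3 arrays that stood apart, 0.109 with each probe set alone and -0.195 to 0.206 with arrays left out. Abcb1b in Lrp5-/- cells, at 0.03, was -0.148 with the block and -0.111 to 0.158 with arrays left out. Abcc5 in the mean of the mutants, at 0.09, ran from -0.00569 to 0.161 with arrays left out. Counts of called members moved as follows. Lrp5-/- against wild type fell to 4 without the 3 arrays that stood apart and to 4 at a 2-fold minimum change, against 8. Norrin KO against wild type was 12, and 6 with the replicate number as a block, which compares with wild type 1 to 3 alone. It was 4 at a 2-fold minimum and 7 to 14 when each array was left out, with 7 without Norrin KO 3. The mean of the mutants was 11, and 4 at a 2-fold minimum. Fz4-/- against Lrp5-/- cells gave 1, and 2 with trend and robust, 0 with only the groups compared, 0 with the block, 0 without the 3 arrays, 0 at a 2-fold minimum and 0 to 1 with arrays left out. Fz4-/- against Norrin KO cells gave 0, and 1 with quantile normalization, 2 with only genes above the median gene, 2 with trend and robust, 2 without the 3 arrays and 0 to 1 with arrays left out. Norrin KO against Lrp5-/- cells gave 4, and 0 with only the groups compared, 0 without the 3 arrays, 0 at a 2-fold minimum, 7 with each probe set on its own (a gene counts if any of its probe sets is called) and 1 to 5 with arrays left out. Except for the construction named, the cause was not tested. Replicate numbers did not pair the samples across all groups. Same-numbered arrays correlated between -0.238 and 0.381, over 0.1 in 5 of 18 pairs, and 5 of 12 correlated best with their own number. Other pairs of arrays from different groups correlated between -0.602 and 0.661, over 0.1 in 18 of 63. Fz4-/- 1 to 3 and wild type 1 to 3, at 0.258, 0.0601 and 0.381, also had like Eif2s3y signals, as given above. The labels do not say whether these were paired. The pairs of Lrp5-/- 1 to 3 with wild type 4 to 6 named above come from the data and not the labels, so no fit used them as blocks. With wild type 4 to 6 as the only comparison, 7 members were called in Lrp5-/- cells, against 8. The fit of the mean of the mutants has no version with only the groups compared. No detection calls limit what can be said of the 17 dim members.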
